A study of Ovis aries with 2 samples.

Results

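Of the 905 barcodes in the post-processed library of sheep cortex, 411 (45.4%) had fewer than 100 detected genes, a detected gene being one with at least 1 unique molecular identifier (UMI). These near-empty barcodes, 411 of the 3030 barcodes in both libraries, were chosen by that number alone. Their UMIs were summed and set against the sum over the 228 barcodes of the same library with 500 or more detected genes, to ask which RNAs so shallow a barcode holds. The 266 barcodes of at least 100 but under 500 genes, called intermediate here, stand between them, and all 2125 barcodes of the pre-processed library are given as a further level.

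Both libraries came from the cerebral cortex of wildtype adult female Rambouillet sheep aged 18 to 36 months, with no treatment in life, and carry the same batch label. The study states about 5000 nuclei per condition, beside the 905 and 2125 barcodes in the post-processed and pre-processed files. The series description speaks of a single animal. For the post-processed library, debris and red blood cells were removed before nuclei isolation; for the pre-processed library, nuclei were isolated straight from the dissected tissue. The post-processed library's treatment label, however, denies the debris and red cell removal that the title and design text give it, and the title was followed here. Each condition is 1 library, so no test was run, and every interval below is an exact 95% interval that covers counting error only.

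In droplet-based sequencing of nuclei, each droplet carries a barcode that marks the RNA captured in it, and a UMI marks each captured molecule. RNA set free when tissue is homogenized can enter droplets that hold no nucleus. Nuclei are rich in unspliced transcripts of long genes, while messages for ribosomal proteins, the respiratory chain and other housekeeping functions collect in the cytoplasm. A nucleus that yielded little RNA and a droplet with no nucleus cannot be told apart from these counts.

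The near-empty barcodes held 28995 UMIs, 3.65% of the library, with a median of 64 per barcode and a range of 44 to 133. Their detected genes ran from 27 to 99, with a median of 55. The barcodes of 500 or more genes held 678397 UMIs, 85.4% of the library, with a median of 2039.5 per barcode. The shallowest pre-processed barcode had 904 UMIs, so no barcode of that library resembles the near-empty ones in depth. Just inside the limit, the 21 barcodes of 95 to 99 genes had a median of 112 UMIs, and just outside it, the 13 barcodes of 100 to 104 genes had a median of 126. The limit therefore cuts through a continuous range of depths. All UMI totals and counts per 1000000 UMIs (CPM) refer to the 12652 listed gene symbols only.

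The barcode sequences themselves set some of the near-empty barcodes apart. Each barcode is 28 bases long and joins 4 segments of 8, 6, 6 and 8 bases, and 96 different sequences occurred in each segment. The barcode with the most near-empty neighbours is printed first, followed by its 3 near-empty neighbours and by 3 intermediate neighbours, with differing bases in capitals:
barcode of 3002 genes and 13493 UMIs: tatccacgcacatttgaaagcgtgggat
near-empty, 79 UMIs: tatccacgcacattCTaaagcgtgggat
near-empty, 69 UMIs: tatccacgcacattAgaaGgcgtgggat
near-empty, 44 UMIs: tatccacgcacatttgCTagcgtgggat
intermediate, 145 UMIs: tatccacgcacatttTaaCgcgtgggat
intermediate, 130 UMIs: taGccacAcacatttgaaagcgtgggat
intermediate, 119 UMIs: tatccacgcacatttCaaagcgtgggat

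A second family shows the near-empty barcode with the most UMIs among those that differ from a deep barcode at 1 base only:
barcode of 1618 genes and 4055 UMIs: aaattccgtagcgataaccctctgattt
near-empty, 105 UMIs: aaattccgtagcgataaGcctctgattt

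In all, 45 of 411 near-empty barcodes, or 10.9% (8.1 to 14.4%), lay within 2 bases of a barcode of 500 or more genes in the same library. At 1 base there were 19 of them, and at 2 bases 26. None lay at 3 to 5 bases, and the next nearest lay at 6. The near-empty barcodes thus fell into a small group beside a deep barcode and a large group far from any. Among the intermediate barcodes, 13 of 266 (4.89%) had such a neighbour, and among the barcodes of 500 or more genes 2 of 228 (0.877%) lay within 2 bases of one another. Against the pre-processed library, whose 2125 barcodes offer many more possible neighbours, 0 of 411 near-empty barcodes lay within 2 bases, which allows a share of up to 0.730%, and the closest lay at 3. No barcode was shared by the libraries, and 0 of the 2125 pre-processed barcodes lay within 2 bases of another one there. The shallowest pre-processed barcode held 904 UMIs, more than any near-empty or intermediate barcode. Neighbours as shallow as those could therefore not be seen in the pre-processed library, and its 0 gives no contrast with the post-processed library.

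**Figure D1:**
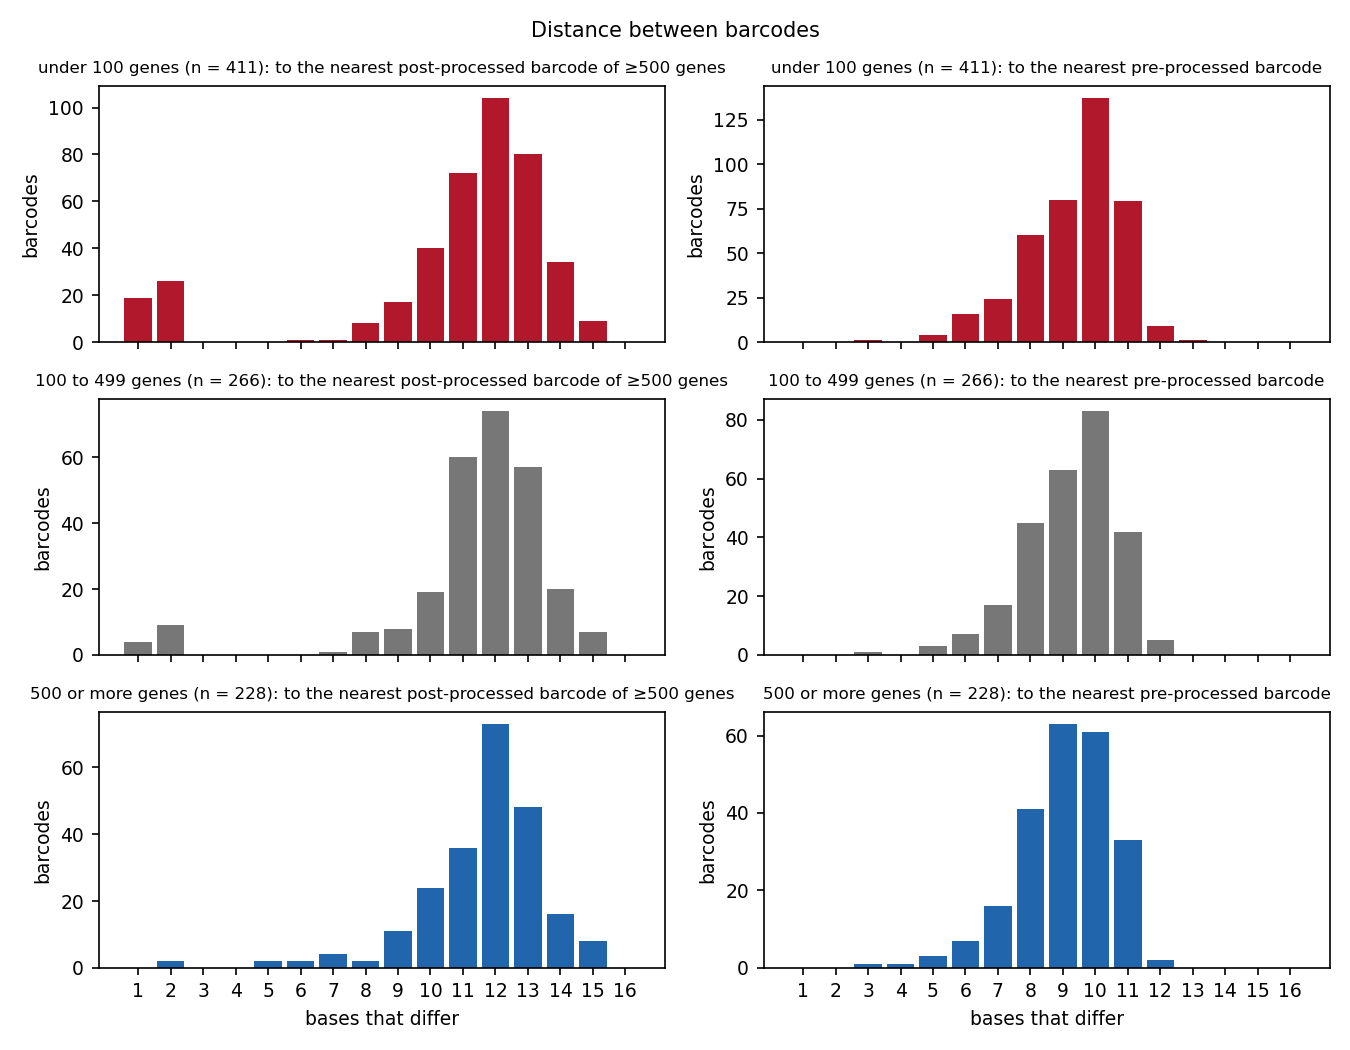
Number of barcodes (y axis) by the number of bases that differ from the nearest barcode in the comparison set (x axis), for near-empty barcodes (top), intermediate barcodes (middle) and barcodes of 500 or more genes (bottom), with distances to post-processed barcodes of 500 or more genes on the left and to pre-processed barcodes on the right. The 45 near-empty barcodes at 1 or 2 bases stand apart from the remaining 366, which begin at 6 bases, and no such group appears on the right.

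Each of the 45 shared 3 of its 4 segments with its deep neighbour. For the 19 at 1 base this follows from the distance, so only the 26 at 2 bases could have come out otherwise. The differing segment was segment 2 in 18 of the 45, segment 3 in 26 and segment 4 in 1. The 45 barcodes had 39 different neighbours, of which 4 had 2 near-empty neighbours and 1 had 3. Those neighbours were deep ones, with a median of 4601 UMIs counted once per pair, and the near-empty barcode held 0.24 to 9.0% as many UMIs as its neighbour, with a median of 1.22%. Counting any deeper post-processed barcode as a possible neighbour, 50 near-empty barcodes lay within 2 bases of one. Of the 91 barcodes of 1000 or more genes, 27 had a near-empty barcode within 2 bases.

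The genes in these 45 barcodes were those of the neighbour. Between 96.8 and 100% of the genes of each were also detected in its neighbour, and for 35 of 45 it was every gene. Over the other 227 barcodes of 500 or more genes, the median share ranged from 32.4 to 52.6%. The neighbour ranked first of 228 for 43 of the 45. The best of the other 227 barcodes reached 82.5 to 100%, since a deep barcode detects many genes and so covers much of any small set. For the 366 near-empty barcodes with no close neighbour, the best of 228 covered a median of 89.4% of their genes, and it covered all of them for 3.

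**Figure D2:**
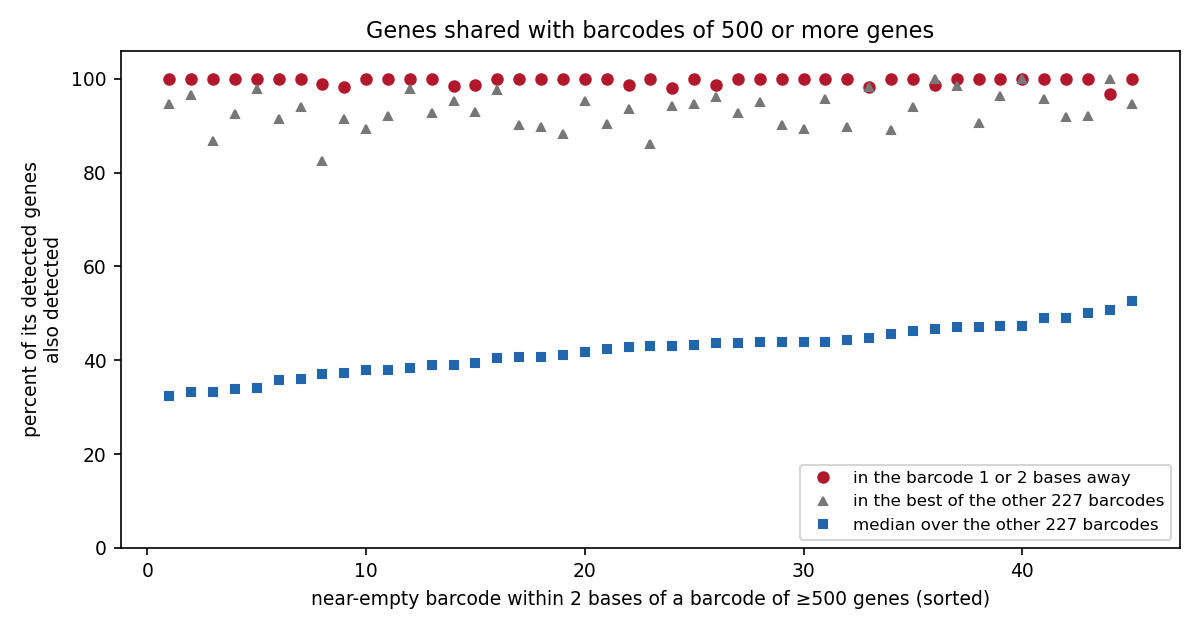
Percent of the detected genes of each of the 45 near-empty barcodes (x axis, sorted) that were also detected in the barcode 1 or 2 bases away (circles), in the best of the other 227 barcodes of 500 or more genes (triangles) and in the median of those 227 (squares). The circles lie between 96.8 and 100%, and the squares between 32.4 and 52.6%.

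These 45 barcodes also differed from the other near-empty ones in which RNAs they held. Cytosolic ribosomal protein genes took 0.77% of their UMIs (0.49 to 1.15%), against 3.58% (3.36 to 3.81%) in the 366 others and 0.909% in their own neighbours. The long and nuclear-retained transcripts took 4.13% (3.45 to 4.90%) against 2.90% (2.70 to 3.11%), and 5.08% in the neighbours. Immediate early genes took 0.53% against 1.11%, with 0.653% in the neighbours. In these 3 groups the near-empty barcodes beside a deep barcode were closer to their neighbours than to the remaining near-empty barcodes. Neuronal markers, with 11 UMIs, took 0.366% (0.183 to 0.654%) against 0.435%, and 0.644% in the neighbours. Oligodendrocyte precursor markers, with 5 UMIs, took 0.167% (0.054 to 0.388%) against 0.162%, and 0.0983% in the neighbours. These intervals hold both comparison values, so these 2 lists cannot place the 45. How a near-empty barcode came to lie so close to a deep one was not tested.

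Cytosolic ribosomal protein messages were higher in near-empty than in deep barcodes. The 34 listed ribosomal protein genes gave 953 UMIs in near-empty barcodes, or 3.29% of all UMIs (3.08 to 3.50%). They took 1.34% in intermediate barcodes, 0.775% (0.754 to 0.796%) in barcodes of 500 or more genes and 0.181% in the pre-processed library. The share in near-empty barcodes was 4.24 times that of the deep barcodes, a log2 ratio of CPM of 2.08 (1.98 to 2.18), and 2.17 with every barcode thinned to 40 UMIs. Within the post-processed library it was 4.02% below 60 genes, 3.04% at 60 to 79, 2.20% at 80 to 99, 1.51% at 100 to 199, 1.28% at 200 to below 500, 0.672% at 500 to below 1000 and 0.822% at 1000 or more. It was lower in each deeper band below 1000 genes, and only the last step ran the other way. Just inside the limit of 100 genes the share was 2.89% (2.26 to 3.65%), and just outside it 1.80% (1.22 to 2.56%), intervals that overlap.

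**Figure D3:**
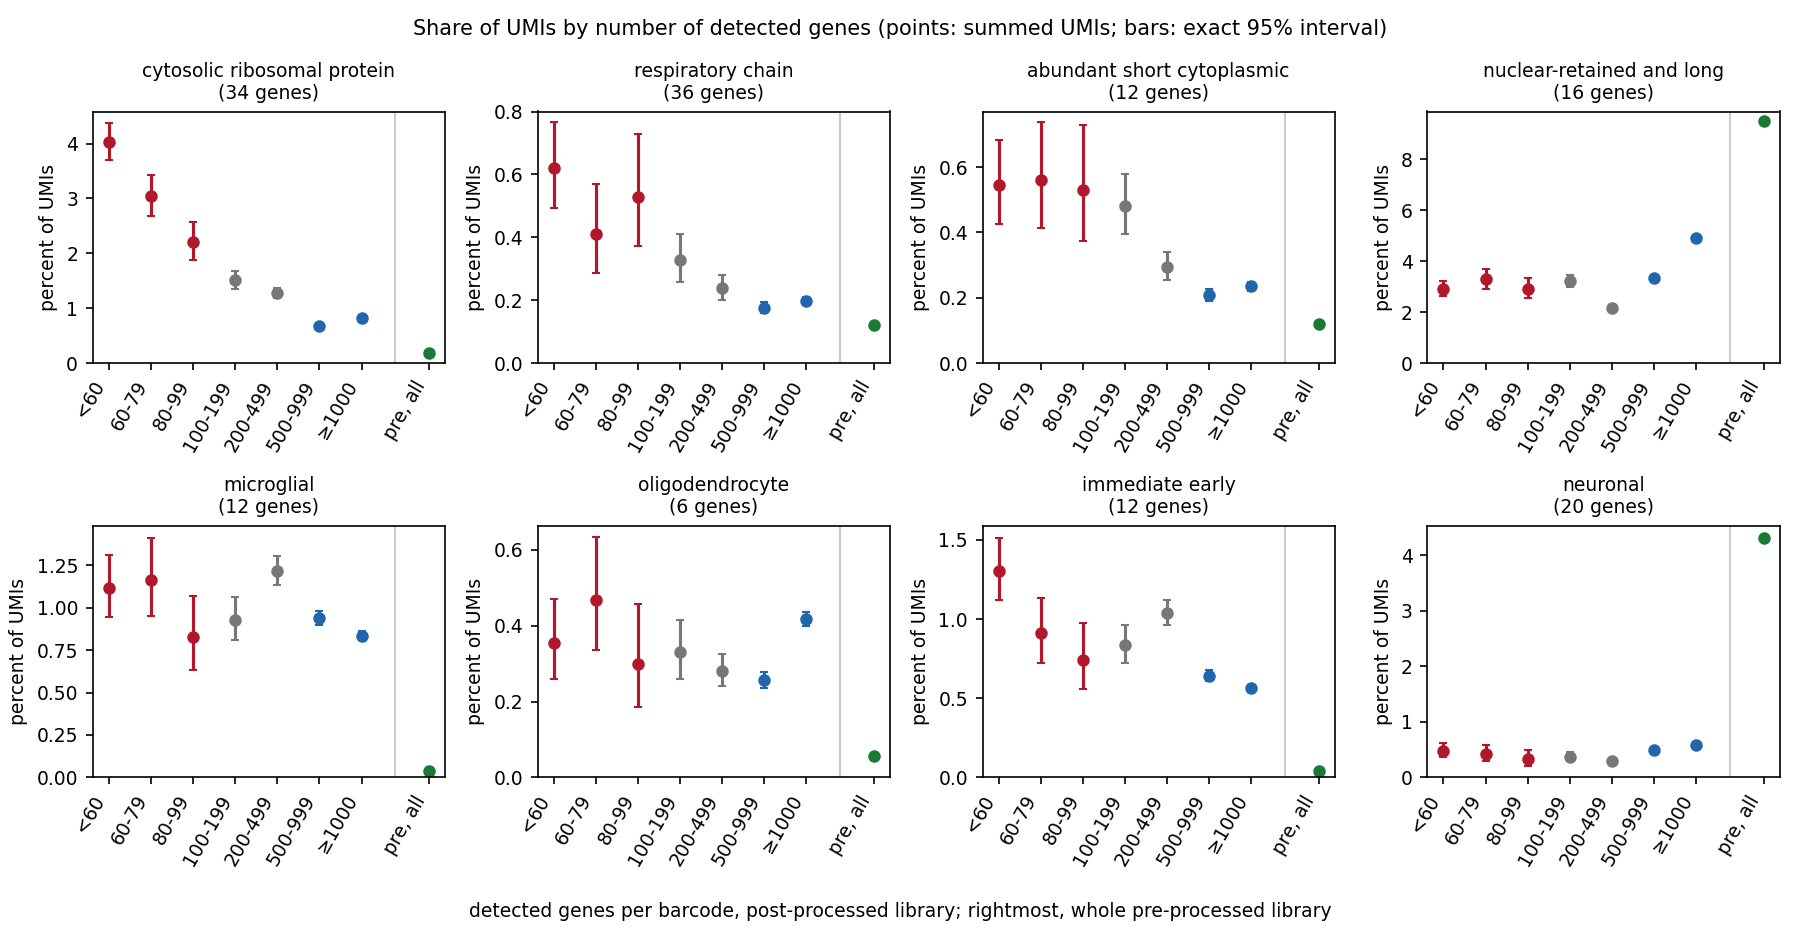
Percent of UMIs (y axes, from 0) taken by 8 gene lists in post-processed barcodes grouped by detected genes, and in the whole pre-processed library at the right of each panel. Points are summed UMIs and bars are exact 95% intervals; the 3 leftmost points are the near-empty barcodes. The ribosomal share lies at 4.02% in the shallowest barcodes and at 0.822% in the deepest, while the long and nuclear-retained share is highest in the pre-processed library.

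Nearly every ribosomal gene took part. Among all genes, 769 had a mean CPM of at least 300 over the near-empty and the deep sum; of these 99 were at least 2-fold higher in near-empty barcodes (12.9 percent of the genes compared), 34 at least 2-fold lower (4.42 percent), 17.3 percent in either direction. That filter lets a gene in through its level in either sum, the near-empty or the deep one. With the filter set on the deep barcodes alone, a setting added after the values were seen, 2098 genes entered, of which 8.87 percent were at least 2-fold higher and 12.2 percent lower. This filter lets genes in by their deep level alone, so its count of lower genes is not free of selection. Of the 34 ribosomal genes 30 entered, 29 of them at least 2-fold higher and 0 lower, with a median log2 ratio of 2.18 beside a median of −0.08 over all 2098. RPL5, a protein of the large subunit, was the exception, at a log2 ratio of 0.73 (−1.06 to 1.89). Ribosomal protein genes have many near-identical copies in mammalian genomes, and how shared reads were assigned is not given, so the split between single ribosomal genes is uncertain.

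RPLP1, a protein of the ribosomal stalk, had 2759 CPM in near-empty barcodes, 1083 CPM in intermediate barcodes, 538 CPM in barcodes of 500 or more and 132 CPM in the pre-processed library. Its 80 UMIs came from 50 near-empty barcodes, with at most 5 in any 1, and its log2 ratio over the deep barcodes was 2.37 (1.99 to 2.71). RPS14, of the small subunit, had 1966 CPM in near-empty barcodes and 363 CPM in deep ones, a log2 ratio of 2.45 (2.0 to 2.86). RPL24, RPL31 and RPL36 of the large subunit and RPS12, RPS27A and RPS28 of the small subunit were also among the 12 genes ranked highest, at log2 ratios between 2.32 and 2.62. Genes of both subunits thus showed the higher level.

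Other messages that belong in the cytoplasm were higher too. The respiratory chain list, nuclear genes for subunits of the mitochondrial electron transport chain and the ATP synthase, gave 155 UMIs over its 36 genes, 5346 CPM in near-empty barcodes against 1910 CPM in deep ones and 1219 CPM in the pre-processed library. Its log2 ratio over the deep barcodes was 1.49 (1.23 to 1.73), and 2.35 with every barcode thinned to 40 UMIs. After thinning, only 9 of the 228 deep barcodes held a UMI of this list, so the value of 2.35 rests on few counts. NDUFA13, a subunit of complex I, had 724 CPM against 146 CPM, a log2 ratio of 2.34 (1.56 to 3.0). ATP5ME, a subunit of the ATP synthase, had 552 CPM against 119 CPM, a log2 ratio of 2.24 (1.33 to 2.99). Few of its genes reached the depth needed for a gene-by-gene count, as 4 of 36 passed the filter on the deep barcodes. Of these, 3 were at least 2-fold higher, beside 8.87 percent of all 2098 genes of that filter.

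The 12 abundant short cytoplasmic messages gave 5449 CPM in near-empty barcodes against 2264 CPM in deep ones, a log2 ratio of 1.27 (1.02 to 1.5). Of the 10 that passed the filter on the deep barcodes, 7 were at least 2-fold higher and 0 lower. All 2098 genes of that filter gave 8.87 percent higher and 12.2 percent lower. B2M, the light chain of MHC class I, stood at a log2 ratio of 2.16 (1.49 to 2.74). TMSB10, an actin-binding thymosin, stood at 1.45 (0.86 to 1.95). PPIB, a peptidyl-prolyl isomerase of the endoplasmic reticulum, was in no list and ranked among the higher genes, with 22 UMIs in 17 near-empty barcodes and a log2 ratio of 3.05 (2.26 to 3.75). Its 92.9 CPM in deep barcodes kept it below the filter set on them, so its ratio is only a description.

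**Figure D4:**
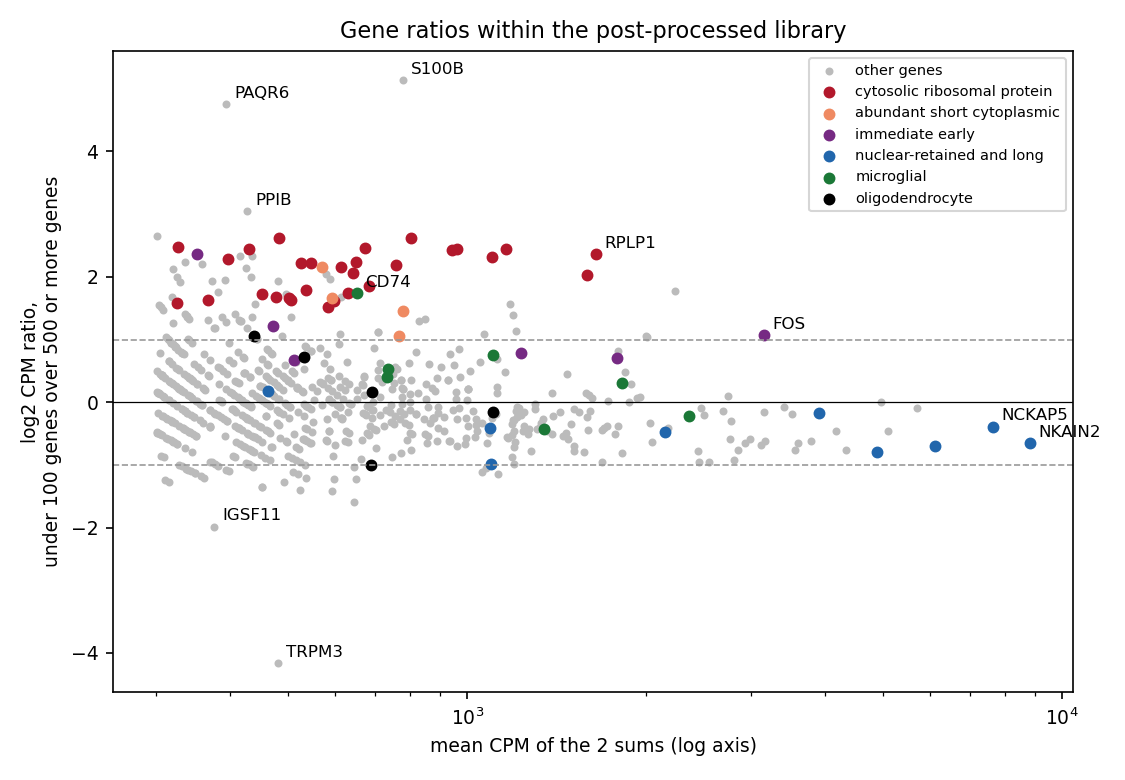
Each point is 1 of the 769 genes with a mean of at least 300 CPM over the near-empty and the deep sum: the mean CPM on a log axis (x) and the log2 ratio of near-empty over deep barcodes (y), with dashed lines at 2-fold. The 29 ribosomal genes that pass this filter form a band between 1.52 and 2.62, above most other genes. The ribosomal gene RPL5, at 0.73, does not pass it, so the lower edge of the band depends on the filter. Long transcripts such as NKAIN2 and NCKAP5 lie below 0.

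Long and nuclear-retained transcripts were the other side of the same comparison. The list of 16 gave 878 UMIs, 3.03% of those in near-empty barcodes (2.83 to 3.23%), against 4.41% (4.36 to 4.46%) in deep barcodes and 9.48% in the pre-processed library. The log2 ratio of near-empty over deep was −0.54 (−0.64 to −0.44). Of the 14 genes that passed the filter on the deep barcodes, 0 were 2-fold higher and 0 lower. Over all 2098 genes of that filter it was 8.87 percent and 12.2 percent. The median log2 ratio of the 14 was −0.40, beside −0.08 over all 2098 genes. The order did not follow depth throughout, since intermediate barcodes had 2.44% (2.34 to 2.55%), below both the near-empty and the deep ones. The log2 ratio of near-empty over intermediate barcodes was therefore 0.31, on the other side of 0.

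As single genes, members of this list still ranked among those with the most UMIs in near-empty barcodes, with NKAIN2 and NCKAP5 first. The list as a whole gave 878 UMIs, fewer than the 953 of the ribosomal protein list. NKAIN2, a membrane protein that interacts with the sodium pump and spans a very long gene, gave 199 UMIs in 118 near-empty barcodes, or 6863 CPM, against 10780 CPM in deep barcodes. NCKAP5 gave 192 UMIs, or 6622 CPM, against 8696 CPM, and MAGI2, a scaffold of cell junctions, 135 UMIs, or 4656 CPM, against 7565 CPM. PTPRD, a receptor phosphatase of neuronal synapses, had 3656 CPM against 4148 CPM, and 15226 CPM in the pre-processed library. The RNA-binding protein gene QKI (160 UMIs) and DOCK4 (144 UMIs), an activator of small GTPases, differed little, at log2 ratios of −0.09 (−0.33 to 0.14) and 0.01 (−0.25 to 0.24). TMCC3 gave 124 UMIs and ELMO1, a partner of DOCK proteins, 101, at log2 ratios of −0.46 and −0.47. So the near-empty barcodes held less of the long transcripts than deep barcodes did, and a large number of them all the same. Over intermediate barcodes the ratios turned: NKAIN2, NCKAP5, MAGI2 and PTPRD stood at log2 ratios of 0.24, 0.49, 0.37 and 0.69.

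Of the 12 genes ranked lowest, the cation channel TRPM3 gave 1 UMI in near-empty barcodes and 629 in deep barcodes, but 563 of those 629 were in 1 barcode. Its log2 ratio of −4.16 (−10.05 to −2.27) thus rests on that barcode and was −0.85 with every barcode thinned to 40 UMIs. After thinning, TRPM3 averaged 0.0024 UMIs per near-empty and 0.0044 per deep barcode, so −0.85 rests on very few counts. IGSF11, an adhesion molecule, gave 4 UMIs and 416 UMIs, a log2 ratio of −1.98 (−4.03 to −0.79), with at most 24 in any 1 deep barcode. PLEKHG1, BACH2 and TANC1 stood at −1.58, −1.42 and −1.39. TRPM3, IGSF11 and TANC1 had 34.5, 138 and 276 CPM in near-empty barcodes and 927, 613 and 769 CPM in deep ones. Their deep level thus brought them past the filter on the mean CPM, while the rest of the 12 had more than 300 CPM in both sums. The glutamate receptor genes GRM3 and GRM8 stood at −1.15 (−1.90 to −0.55) and −0.95 (−1.41 to −0.56). TMEM178B, PLCL1, AGAP1, ERBB4 and SLC24A2 completed the 12, at log2 ratios between −1.12 and −0.80. ERBB4, GRM8 and SLC24A2 stood above 0 over intermediate barcodes, at 0.29, 0.19 and 0.28.

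Microglial and oligodendrocyte markers stood near the level of the deep barcodes of the same library, and well above that of the pre-processed library. The 12 microglial markers gave 308 UMIs in 176 near-empty barcodes, 10622 CPM, against 8667 CPM in deep barcodes, 11393 CPM in intermediate barcodes and 357 CPM in the pre-processed library. The log2 ratio over the deep barcodes was 0.30 (0.12 to 0.46). P2RY12, the purinergic receptor of resting microglia, had 2000 CPM against 1638 CPM in deep barcodes and 75 CPM in the pre-processed library. INPP5D, a lipid phosphatase of blood and microglial cells, had 2173 CPM against 2546 CPM. CSF1R, the receptor for microglial survival signals, had 1380 CPM against 831 CPM, and CD74, the invariant chain of MHC class II, 1000 CPM against 304 CPM, a log2 ratio of 1.74 (1.11 to 2.29). Of the 10 microglial genes that passed the filter on the deep barcodes, 3 were at least 2-fold higher and 0 lower. The shares over all 2098 genes of that filter were 8.87 percent and 12.2 percent.

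The 6 oligodendrocyte markers gave 109 UMIs, 3759 CPM against 3669 CPM in deep barcodes and 572 CPM in the pre-processed library, a log2 ratio of 0.04 (−0.26 to 0.31). Within the list, MAL, a proteolipid of myelin membranes, stood at 1.05 (0.21 to 1.73), and ST18, a zinc-finger transcription factor, at −1.0 (−1.97 to −0.27). UGT8, the enzyme that makes the galactolipids of myelin, had 1035 CPM against 1176 CPM. The oligodendrocyte sum therefore hid members that differed in direction.

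The 20 neuronal markers gave 124 UMIs, 4277 CPM against 3168 CPM in intermediate barcodes, 5560 CPM in deep ones and 43110 CPM in the pre-processed library. Of the 124, ERBB4 gave 56 (1931 CPM, and 4082 CPM in the pre-processed library) and MAP2 gave 48 (1655 CPM, and 1915 CPM in the pre-processed library). Both genes can also be expressed in glial cells. SYT1, the calcium sensor of synaptic vesicles, gave 1 UMI, or 34.5 CPM, against 7338 CPM in the pre-processed library. Of the 20 genes, 11 had none in near-empty barcodes, the kinase CAMK2A among them, and 7 had none in deep barcodes. Only 4894 of all 12652 symbols had a UMI in near-empty barcodes, so the 11 alone do not set this list apart from other genes. Astrocyte markers gave 5 UMIs over 6 genes, and ETNPPL and FGFR3 were at 0. Levels relative to the pre-processed library thus differed widely within the neuronal list, while its list sum was lower in near-empty barcodes.

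Smaller lists gave few UMIs. Oligodendrocyte precursor markers gave 47, of which LHFPL3 gave 36, with PDGFRA and OLIG2 at 0. The whole list had 1621 CPM, against 976 CPM in deep barcodes and 1874 CPM in the pre-processed library. Its log2 ratio over deep barcodes was 0.75 (0.27 to 1.16). Endothelial markers gave 55 at 0.71 (0.27 to 1.09), led by the glucose transporter SLC2A1 with 19 and the clotting factor VWF with 10. Of the 55 endothelial UMIs, 28 came from the 65 barcodes of 80 to 99 genes, 7 of them from 1 barcode. Lymphocyte markers gave 22 and mural and fibroblast markers 21, at 0.14 and 0.11 with intervals that span 0. The neutrophil and monocyte list gave 2 UMIs and the erythroid list, 1 gene, gave 3, and the haemoglobin genes were not analysed here.

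Immediate early genes, which are transcribed within minutes of a stimulus, gave 305 UMIs in 171 near-empty barcodes. Their level was 10519 CPM against 5880 CPM in deep barcodes, 9860 CPM in intermediate barcodes and 387 CPM in the pre-processed library, and the log2 ratio over the deep barcodes was 0.84 (0.67 to 1.01). FOS, a subunit of the AP-1 transcription factor, gave 124 UMIs in 89 near-empty barcodes. It had 4277 CPM in near-empty barcodes, 3571 CPM in intermediate barcodes, 2043 CPM in deep barcodes and 14.5 CPM in the pre-processed library. JUN, its partner, stood at a log2 ratio of 0.70 (0.30 to 1.06), JUNB at 1.22 (0.43 to 1.87), NR4A1 at 0.79 (0.30 to 1.21) and IER2 at 2.36 (1.48 to 3.10). Of the 9 immediate early genes that passed the filter on the deep barcodes, 3 were at least 2-fold higher and 0 lower. Among all 2098 genes of that filter, 8.87 percent were higher and 12.2 percent lower. Heat shock genes gave 68 UMIs at a log2 ratio of 0.55 (0.16 to 0.89), where the chaperone HSPA6 stood at 1.68 (1.02 to 2.24) and the co-chaperone DNAJA1 at −1.89 (−5.27 to −0.34). Inflammatory activation genes gave 44 UMIs at 0.08 (−0.41 to 0.50).

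Because depth differs so widely, each barcode was also thinned at random to 40 UMIs. At that depth 52.8% of near-empty barcodes had a ribosomal protein UMI (47.8 to 57.7%), against 30.8% in intermediate barcodes, 21.1% in deep barcodes (15.9 to 26.9%) and 9.60% in the pre-processed library. Without thinning the shares were 64.2%, 81.6%, 95.6% and 96.8%, at median depths of 64, 264.5, 2039.5 and 2524 UMIs. Microglial markers were found in 30.7% of near-empty barcodes (26.2 to 35.4%), 27.6% of deep ones and 2.49% of pre-processed ones, and in 42.8%, 84.2% and 37.4% without thinning. Oligodendrocyte markers were found in 12.7%, 13.2% and 3.34%, and in 21.4%, 71.5% and 53.1% without thinning. Long and nuclear-retained transcripts were found in 51.1% of near-empty, 51.5% of intermediate, 51.8% of deep and 94.1% of pre-processed barcodes. They averaged 1.19 UMIs per near-empty and 1.39 per deep barcode. At equal depth, then, microglial markers, oligodendrocyte markers and long transcripts were found in about as many near-empty as deep barcodes. Ribosomal messages were more frequent in near-empty ones.

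The near-empty barcodes were far from alike in their ribosomal content. Of 40 UMIs, 194 of 411 barcodes had no ribosomal UMI, 70 (17%) had 3 or more and the highest had 15. The variance over the mean across barcodes was 3.64, where even draws from a common pool give a value near 1. It was 1.91 in intermediate barcodes, 1.49 in deep barcodes and 1.11 in the pre-processed library. For microglial markers it was 1.34 in near-empty and 1.17 in deep barcodes, and for the respiratory chain 1.77 and 1.16. The long and nuclear-retained list went the other way, at 2.26 and 2.74. For unevenly spread counts this ratio also rises with the mean. Ribosomal UMIs averaged 1.37 per near-empty barcode, 0.534 per intermediate, 0.303 per deep and 0.106 per pre-processed one. The ratios therefore cannot rank these groups by unevenness. Within the near-empty barcodes, ribosomal messages were still concentrated in a subset.

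**Figure D5:**
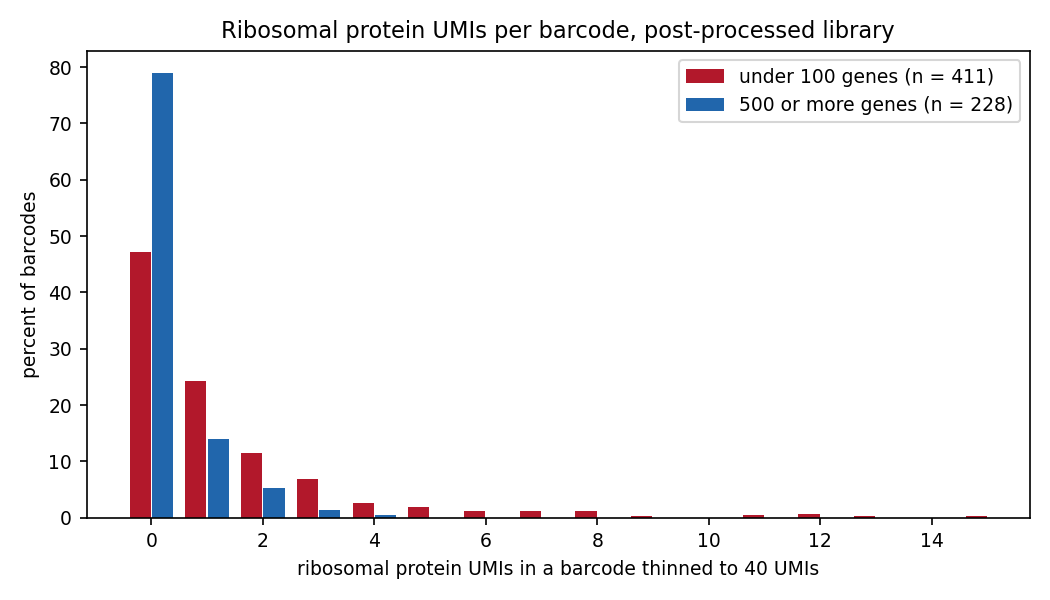
Percent of barcodes (y axis, from 0) by the number of ribosomal protein UMIs among 40 UMIs kept at random (x axis), for near-empty barcodes (left bar of each pair, n = 411) and barcodes of 500 or more genes (right bar, n = 228). Near-empty barcodes reach 15 of 40, and deep ones 4.

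Other RNAs varied with that content. Among the 217 near-empty barcodes with a ribosomal UMI at 40 UMIs, 43.8% (37.1 to 50.7%) had a long or nuclear-retained transcript, against 59.3% (52.0 to 66.3%) of the 194 without one. A respiratory chain UMI was found in 23.5% (18.0 to 29.7%) and 10.8% (6.83 to 16.1%). A ribosomal UMI takes a place among 40, which by itself lowers the room for others in those barcodes. Microglial markers were about as frequent in near-empty barcodes with an oligodendrocyte UMI as in those without one. Of the 52 with one, 17 (32.7%, 20.3 to 47.1%) had a microglial UMI, against 30.4% of the 359 without. In deep barcodes it was 3 of 30 (2.11 to 26.5%) against 30.3% of 198. In deep barcodes the intervals overlap too (24.0 to 37.2% without an oligodendrocyte UMI), and the difference between near-empty and deep barcodes was not tested.

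S100B, a calcium-binding protein known from astrocytes and also made by oligodendrocytes, ranked first among the genes higher in near-empty barcodes, where its own level brought it past the filter on the mean CPM. It gave 44 UMIs in near-empty barcodes and 29 in deep ones, 1518 CPM and 42.7 CPM, with 127 CPM in intermediate barcodes and 121 CPM in the pre-processed library. Its log2 ratio over the deep barcodes was 5.14 (4.44 to 5.88), and 3.24 with every barcode thinned to 40 UMIs. After thinning, deep barcodes averaged only 0.0044 S100B UMIs each, so the value of 3.24 rests on very few counts. All 44 came from 17 near-empty barcodes, up to 7 in 1 of them, so the level rests on few barcodes and not on the whole set. PAQR6, a membrane receptor of the progestin and adipoQ receptor family, followed with 22 UMIs in 12 barcodes, 759 CPM against 28 CPM and a log2 ratio of 4.75 (3.81 to 5.73). AIF1L, an actin-binding protein, gave 15 UMIs in 10 barcodes at 2.66 (1.69 to 3.46). With the filter set on the deep barcodes alone, at 100 CPM, none of these 3 genes enters.

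The 17 barcodes with an S100B UMI, chosen after their values were seen, had a median of 56 UMIs. Ribosomal protein genes took 17.2% (14.9 to 19.7%) of their UMIs other than S100B, against 2.81% (2.62 to 3.01%) in the other 394 near-empty barcodes. Long and nuclear-retained transcripts took 0.92% against 3.11%. They held 12 of the 22 PAQR6 UMIs, 9 of the 15 of AIF1L and 13 of the 20 of PEA15, a phosphoprotein abundant in astrocytes that is likewise named after its values were seen. None of their 976 other UMIs came from the 6 astrocyte markers, which allows a share of up to 0.307%. These markers took 0.0179% in the other 394 near-empty barcodes and 0.120% in the pre-processed library. Both shares lie below that limit, so the 0 cannot show that astrocyte RNA was absent. The 17 deep barcodes with an S100B UMI had 1.06% ribosomal UMIs. At their median of 4319 UMIs a single S100B UMI marks a far smaller share of a barcode, so the percentages of near-empty and deep S100B barcodes are not comparable. Without the 17 barcodes, the ribosomal log2 ratio over the deep barcodes was 1.86.

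Over the 769 genes, the rank correlation of the near-empty sum was 0.64 with intermediate barcodes, 0.54 with barcodes of 500 or more and 0.13 with the pre-processed library. The intermediate barcodes had a rank correlation of 0.82 with the deep ones, and the deep ones 0.53 with the pre-processed library. These values describe genes, which are not replicates, and the smaller near-empty sum has more counting error in each gene. A UMI was found for 4894 symbols in the near-empty barcodes, for 1442 of them only once, and 82 of the 4894 had none in deep barcodes, with 93 UMIs in all.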

How the data were processed

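Nuclear RNA was measured by droplet-based 3′ single-nucleus sequencing (Illumina T2 kit, per the labels' protocols). The deposited matrices hold raw UMI counts per gene and barcode, whole numbers with no normalization per the values; the submitters' processing notes name DRAGEN. Neither its version nor a genome build, an annotation or a barcode-calling rule is stated, and coordinates are left out for that reason. The files as used list 13765 features with 12652 symbols, and RefSeq's ARS-UI_Ramb_v3.0 table held every symbol. Mitochondrially encoded genes were not analysed here.

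Every post-processed barcode under 100 detected genes was kept, no doublet was removed, and UMIs were summed. Shares carry Clopper-Pearson intervals and ratios conditional binomial intervals at 95%, which cover counting error only. A count of 0 was given the limit of 3 counts. Log2 ratios have 0.5 counts added. Thinning drew 40 UMIs per barcode without replacement. The 12 highest and 12 lowest genes were ranked, among those with a mean CPM of 300 or more, by the interval's bound nearest 0, and the 10 genes with the most UMIs were added; every listed gene of the 17 lists could be named. The members, lists and rules were chosen with earlier results of these data known. Self-tests on simulated counts preceded the analysis. Python 3.11.15, numpy 2.4.6, scipy 1.17.1, pandas 2.3.3 and matplotlib 3.10.9 were used.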

Additional observations from a re-analysis of the deposited data

How the results depend on the processing

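Barcodes are not replicates and each condition is 1 library, so these settings test the arithmetic and not the biology. No paired analysis was possible because each condition has 1 library. Summed over lists and settings, 116 values stayed within the counting interval and 23 did not. For the genes named, 247 did and 42 did not. All 42 came from the comparison with intermediate barcodes (25 moved, 8 did not) and from thinning to 40 UMIs (17 moved, 16 did not). For the lists, 9 moved and 8 did not over intermediate barcodes, and 7 moved and 10 did not after thinning. The pooled totals therefore understate how far the values depend on these settings.

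The number of genes at least 2-fold higher (99) was 186 with the filter on the deep barcodes alone, added after seeing the data, 437 at a mean CPM of 100 and 4058 with no filter, where genes of 1 UMI enter. The number lower (34) was 256, 136 and 645 under the same filters, 177 after thinning to 40 UMIs and 55 without the near-empty barcodes within 2 bases of a deep one. Set against intermediate barcodes, the log2 ratios were 1.30 for ribosomal protein genes, 1.03 for the respiratory chain, 0.67 for short cytoplasmic messages, 0.095 for immediate early genes, −0.10 for microglial, 0.36 for oligodendrocyte and 0.44 for neuronal markers, and 0.31 for long and nuclear-retained transcripts, so microglial, neuronal and long transcripts changed sign. The ribosomal ratio (2.08) was 2.23 for members under 80 genes, 1.97 over all barcodes of 100 or more, 2.21 without the members within 2 bases and 1.86 without the S100B barcodes (added). After thinning, the respiratory chain stood at 2.35, immediate early genes at 0.53 and long transcripts at −0.22. Long transcripts stood at −0.69 over barcodes of 1000 or more genes and at −0.36 without the 10 genes with the most UMIs. The rank correlation (0.54) was 0.30 after thinning, 0.62 at a mean CPM of 100, 0.61 with intermediate barcodes over the 781 genes whose mean CPM with those barcodes passed the filter and 0.48 without the members within 2 bases. With another random seed the respiratory chain share of barcodes was 13.6%, and its variance over the mean was 1.46 below 80 genes (1.77). The cause of each shift was not tested. Depth limits single genes: a near-empty sum of 28995 UMIs makes 1 UMI equal to 34.5 CPM.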
